A study of Homo sapiens with 32 samples.

Results

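The RNAs of 9 human genes were examined for contacts with 3 mRNA export factors, Alyref, Chtop and Nxf1: JUN, JUNB, JUND, IER2, IER5, TAF7, FRAT1, FRAT2 and CEBPB, of 64440 annotated genes on the nuclear chromosomes. They were chosen as immediate-early and regulatory genes without introns, and their tags were counted on the gene strand within the gene body and placed from transcript start to transcript end. Going by canonical transcripts, the label holds for 8 of the 9 genes: that of IER2 has 2 exons in the annotation used here, while those of the other 8 have 1. Exons of other annotated transcripts were not counted.

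iCLIP, which maps the bases of RNA that ultraviolet light crosslinks to a protein, was carried out with an anti-FLAG antibody in cells labelled HEK293T, an established human embryonic kidney line. By the growth protocol these were FlpIn-293 lines, made from cells of the same kidney origin, and they carried FLAG-tagged Alyref, Chtop or Nxf1 in inducible form, and 48 h of tetracycline induced the tagged protein, at 5 ng/mL in the Nxf1 line and 10 ng/mL in the others. The Control line carried an empty FLAG construct, and no dose is given for it. Each of the 4 groups had 3 libraries, from 32 lane runs in all, and a tag is 1 deduplicated read assigned to its crosslinked base. Nothing in the sources used here says that the replicates were separate cultures, so the tests measure the spread between libraries.

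Most human mRNAs are spliced, and the TREX complex, which holds Alyref and Chtop, is loaded on them during transcription and splicing before it hands the RNA to the export receptor Nxf1. RNAs without introns have no exon junctions, but still leave the nucleus. Immediate-early genes are transcribed within minutes of a stimulus, and many are short.

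Replicate 1 was the shallowest library of every group. Totals ran from 81307 to 631704 tags for Alyref, from 47052 to 538844 for Chtop, from 8134 to 179346 for Nxf1 and from 7017 to 46628 for Control. In the Control libraries, 3 tags came to between 64.3 and 428 CPM (the share of all tags of a library, scaled to 1e6), so a gene with no Control tag could not be separated from a gene at a low level. A tag level depends on the amount of an RNA as well as on its binding, and these cannot be told apart from tags alone.

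The 9 genes code for regulators of 4 kinds. JUN, JUNB and JUND are AP-1 transcription factors, and CEBPB is a C/EBP transcription factor of the acute-phase response and of differentiation. IER2 and IER5 are immediate-early response proteins. TAF7 is a subunit of the general transcription factor TFIID, and FRAT1 and FRAT2 bind the kinase GSK3 and act in Wnt signalling. In hg19 (GRCh37), the canonical transcript of JUN lies at chr1:59246463-59249719 on the minus strand (gene body chr1:59242517-59249720), IER5 at chr1:181057836-181062036 on the plus strand, and FRAT1 at chr10:99079028-99081672 on the plus strand with FRAT2 at chr10:99092254-99094486 on the minus strand. JUNB lies at chr19:12902300-12904129 and IER2 at chr19:13261225-13265725, both on the plus strand, and JUND at chr19:18390504-18392432 on the minus strand. The canonical transcript of TAF7 lies at chr5:140698057-140700351 on the minus strand, within an annotated gene body of 60900 nt (chr5:140639452-140700351) that also holds SLC25A2 and AC005618.1 on the same strand, and CEBPB lies at chr20:48807367-48809205 on the plus strand. Transcripts ran from 1830 nt (JUNB) to 4201 nt (IER5), with a median of 2233 nt. The median GC content of the 9 transcripts was 62.3%, against 50.1% for other single-exon and 49.0% for multi-exon protein-coding genes. The exceptions were TAF7 at 43.4% and IER5 at 49.8%, while the other 7 lay between 56.1% (JUN) and 69.9% (JUND).

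Within these transcripts, tags sat mostly on different bases. Over the 9 genes, 862 bases had a tag, 59 of them (6.84%) in at least 2 libraries and 33 in at least 2 groups. The base with most tags of each gene is given where it was hit in at least 2 libraries, as 21 nt of hg19 read in the direction of the transcript, with the crosslinked base in capitals. In JUN, JUNB and IER5 other bases had as many tags, and 1 is shown. They are shown as the contacts that libraries shared.
JUN, 5′ UTR, chr1:59249584-59249604: aaatcttattTtcttttcacc
IER5, 5′ UTR, chr1:181057864-181057884: gttgtcttgtTtggagaggtt
JUNB, 3′ UTR, chr19:12903822-12903842: tttttgtatgTtttttttctg
IER2, 3′ UTR, chr19:13264998-13265018: gggtgttgtgTtttttgtttt
CEBPB, 3′ UTR, chr20:48809065-48809085: tttgttttgtTttttggtctt
All 5 crosslinked bases are T (U in the RNA), and 10 to 16 of the 21 bases in each window are T. The JUN base had 3 tags in 3 libraries, 2 in Chtop and 1 in Nxf1, and the IER2 base had 3 tags in 3 libraries, 2 in Alyref and 1 in Chtop. The JUNB, IER5 and CEBPB bases had 2 tags each, in 2 libraries each.

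Uridine was the crosslinked base of 52.8% of exonic tags of the 9 genes in Alyref (95% Wilson interval 46.6 to 58.8), 260 of 520 tags in Chtop (interval 45.7 to 54.3) and 45.8% in Nxf1 (35.5 to 56.4). Over all tags of the nuclear chromosomes it was 54.6%, 55.2%, 52.8% and, in Control, 52.9%. The median U content of the 9 transcripts was 20.0%, against 24.7% over all 19881 protein-coding genes, with TAF7 (26.8%) and IER5 (26.0%) above the latter. Ultraviolet crosslinking is known to favour uridine. Intervals here and below cover counting error only.

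Chtop tagged the 9 genes more heavily than Alyref. Their summed tags came to 148, 245 and 192 CPM in the Alyref libraries, 255, 503 and 640 in Chtop, 369, 411 and 212 in Nxf1, and 143, 107 and 81.1 in Control. The highest Alyref library lay just below the lowest Chtop library, and each Control library lay below every library of the tagged proteins. The means (± SD, n = 3) were 466 ± 195 CPM in Chtop, 331 ± 105 in Nxf1, 195 ± 48.9 in Alyref and 110 ± 30.8 in Control. Nxf1 replicate 1 and Control replicate 1 held 3 and 1 of these tags, so those sums rest on almost no data. Alyref replicate 1 and Chtop replicate 1 held 12 of them each, so the narrow gap between Alyref and Chtop rests on few tags.

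The place of Nxf1 and Control depended on what the tags were divided by. Exons of protein-coding genes held 42.1% of all tags in Alyref, 56.2% in Chtop, 22.6% in Nxf1 and 13.8% in Control. Divided by these exonic tags, the 9 genes had 459 tags per 1e6 in Alyref, 912 in Chtop, 1196 in Nxf1 and 719 in Control, pooled over replicates. All 3 Alyref libraries (333 to 471) then still lay below all 3 Chtop libraries (666 to 961), but Nxf1 and not Chtop was highest, and Control (413 to 960) overlapped with all 3. The 666 of Chtop replicate 1 came from 12 tags. Pooled over all tags, Chtop had the highest level in 6 of the 9 genes and Nxf1 in 3 (JUND, FRAT2 and CEBPB), and Alyref the lowest of the tagged proteins in 6. The order of Alyref and Chtop held on both scales.

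**Figure D1:**
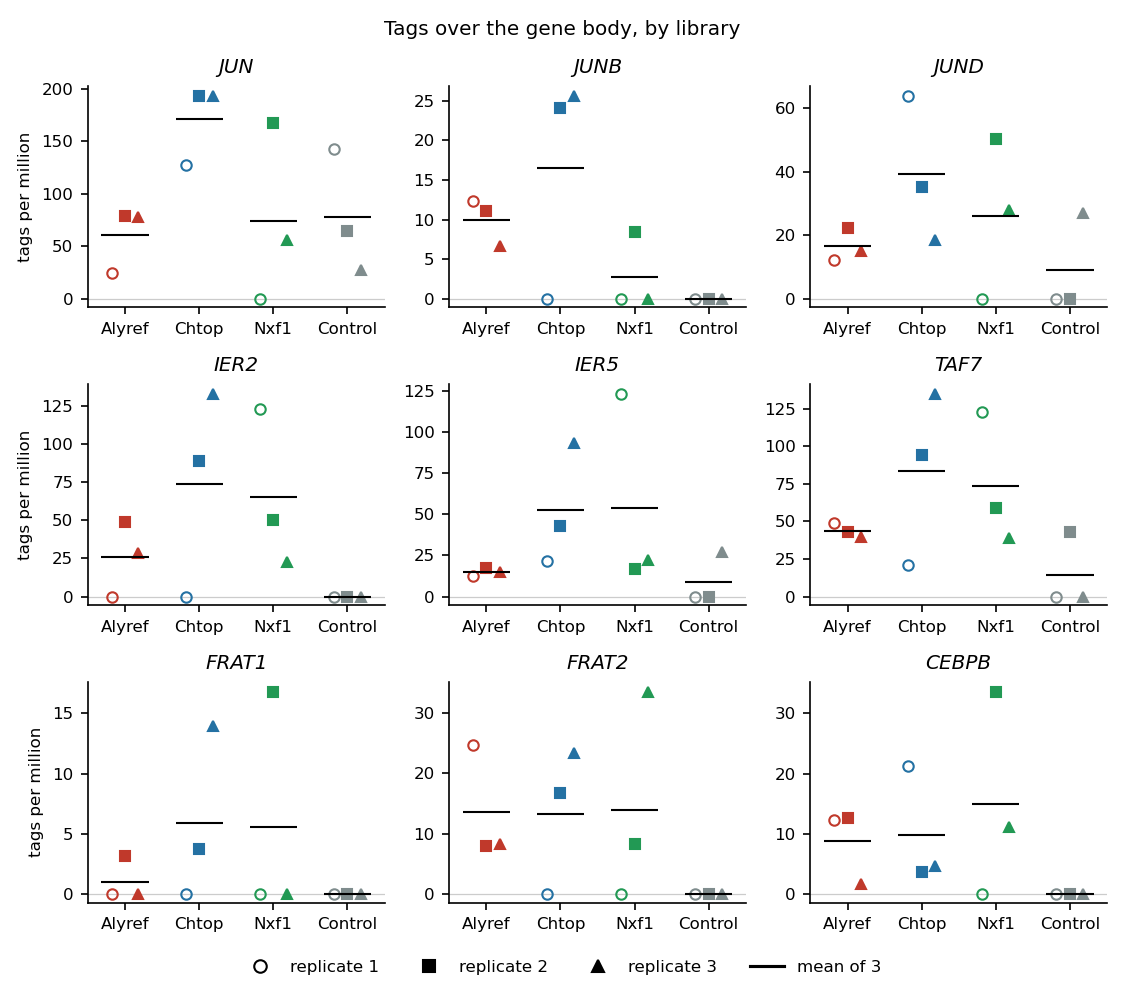
Tags in CPM over the gene body of each of the 9 genes (y axis, its own scale in each panel) by group (x axis). Each point is 1 library, open for the shallow replicate 1, and the bar is the mean of 3. JUN and IER5 are the genes whose 3 Alyref libraries all lie below their 3 Chtop libraries.

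JUN had the most tags. The JUN gene body had 24.6, 79.2 and 77.9 CPM in Alyref replicates 1 to 3 and 128, 193 and 193 CPM in Chtop. It had 0, 168 and 55.8 CPM in Nxf1 and 143, 64.3 and 27.0 CPM in Control, where the counts were 1, 3 and 1 tags. Every Alyref library lay below every Chtop library, while the Control libraries overlapped with all 3 tagged proteins. Replicate 1 rested on 2 tags in Alyref and 6 in Chtop.

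edgeR's quasi-likelihood test found JUN lower in Alyref than in Chtop by 1.47 on the log2 scale (−1.47, SE 0.31, adjusted p = 0.00289). It was called among 3884 genes kept by the filter on low counts, of which 13.5% were called in this comparison. JUN was the only one of the 9 genes that this filter kept. In the remaining comparisons JUN was not called, against backgrounds of 0% for Alyref and Control, 13.4% for Chtop and Control, 0% for Nxf1 and Control, 3.89% for Alyref and Nxf1 and 23.3% for Chtop and Nxf1. The change of JUN from Control was 1.70 for Chtop (SE 0.64, unadjusted p = 0.013, adjusted p = 0.0713), 0.96 for Nxf1 (SE 0.74, adjusted p = 0.827) and 0.23 for Alyref (SE 0.74, adjusted p = 0.912). The call between Alyref and Chtop was lost without Alyref replicate 2 (−1.51, adjusted p = 0.0769), without Alyref replicate 3 (−1.61, adjusted p = 0.067) and with DESeq2 (−1.55, adjusted p = 0.0802), with a change as large in each. Over all genes the calls fell as well, from 523 of 3884 to 9 of 3487, 8 of 3494 and 74 of 3884. DESeq2 called JUN in 0 of the 6 comparisons. Counted over exons alone, with 884 genes kept, JUN was lower in Alyref than in Chtop by a smaller margin (−0.93), while its values turned to 0.10 for Chtop against Control, −0.82 for Alyref against Control and −0.71 for Chtop against Nxf1, and it was called lower in Alyref than in Nxf1 (−1.64, adjusted p = 0.00205), as 260 of the 884 genes were called in that comparison.

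To bring in the rest, genes with at least 20 tags over the 12 libraries were tested as well, a filter chosen after the data were seen. It kept 14122 genes and 8 of the 9, FRAT1 apart. The filter counts tags of all groups together, so a gene can pass through its Chtop tags. JUNB, FRAT2 and CEBPB passed only with theirs (24, 19 and 5 tags), and their values are part of the median below. CEBPB needed its Alyref and Nxf1 tags (10 and 6) as well. Of these 8, 4 were called lower in Alyref than in Chtop and 0 higher, where 7.13% of all genes were called, 269 higher and 738 lower. The median change of the 8 was −1.45, against −0.05 over all genes tested. Over exons alone the same 4 genes were called lower, with a median of −0.91 for the 8 against 0.10 over all 10222 genes, of which 16.7% were called, 1102 higher and 610 lower. JUN gave −0.94 (SE 0.30, adjusted p = 0.016) on that scale and IER5 −1.52 (SE 0.45, adjusted p = 0.00926).

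IER5 had the largest difference of the 8. Its levels were 12.3, 17.4 and 14.9 CPM in Alyref and 21.3, 42.7 and 93.1 CPM in Chtop, with no overlap between the groups. Replicate 1 of both rested on 1 tag, so the gap between 17.4 and 21.3 CPM does too. Nxf1 had 123, 16.8 and 22.3 CPM, the first from 1 tag as well, and 1 Control library had a tag. The log2 change from Chtop to Alyref was −2.13 (SE 0.49, adjusted p = 0.00136).

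IER2 had 0, 49.1 and 28.2 CPM in Alyref, 0, 89.1 and 133 in Chtop, 123, 50.3 and 22.3 in Nxf1 and no tag in any Control library. The deeper Alyref libraries lay below the deeper Chtop libraries, and replicate 1 of both had no tag. The log2 change was −1.66 (SE 0.40, adjusted p = 0.00296).

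TAF7 had 49.2, 42.7 and 39.8 CPM in Alyref and 21.3, 94.6 and 135 in Chtop, the first Chtop value being 1 tag. Nxf1 had 123, 58.7 and 39.0 CPM, the first again from 1 tag, and 1 Control library held 2 tags. Its log2 change was −1.47 (SE 0.40, adjusted p = 0.00788). SLC25A2 lies in the TAF7 gene body and the pseudogene AC005618.1 inside its transcript, and counted only where 1 gene body holds the base, TAF7 gave −1.15 (adjusted p = 0.0798). Outside its canonical exons lay 9 of 55 Alyref tags and 3 of 110 Chtop tags of TAF7.

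These 4 calls rested on the deeper libraries. Without Alyref replicate 2 or without Alyref replicate 3, 0 of the 8 genes were called, and without Chtop replicate 3 only JUN was, although all 4 log2 changes kept their sign in each of the 18 alternatives run. Over all 14122 genes the calls fell from 1007 to 82, 40 and 150. Without Alyref replicate 2 the changes were −1.63 for JUN, −2.20 for IER5, −2.18 for IER2 and −1.40 for TAF7. DESeq2 called 0 of the 8 and 46 of all genes. It gave an adjusted p for only JUN (−1.55, adjusted p = 0.0961), and 3 of the 8 had an unadjusted p under 0.05. In 7 of the 9 genes replicates 2 and 3 of Alyref both lay below replicates 2 and 3 of Chtop, JUND and CEBPB being the exceptions.

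JUNB, the AP-1 member that often opposes JUN, had 12.3, 11.1 and 6.63 CPM in Alyref and 0, 24.1 and 25.6 in Chtop. Its change of −1.42 (SE 0.68, adjusted p = 0.193) was not called. JUND, the member expressed most constantly, had 12.3, 22.2 and 14.9 CPM in Alyref, 63.8, 35.3 and 18.6 in Chtop, 0, 50.3 and 27.9 in Nxf1. Its change between Alyref and Chtop was −0.89 (SE 0.56, adjusted p = 0.353). FRAT2 had 24.6, 7.92 and 8.29 CPM in Alyref and 0, 16.7 and 23.3 in Chtop, and a change of −1.06 (SE 0.70, adjusted p = 0.381). CEBPB was the one tested gene with a positive value, 0.37 (SE 0.88, adjusted p = 0.852), from 12.3, 12.7 and 1.66 CPM in Alyref and 21.3, 3.71 and 4.66 in Chtop. FRAT1 was near the limit of detection, with 2 tags in Alyref, 8 in Chtop, 2 in Nxf1 and none in Control, and was not tested.

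**Figure D2:**
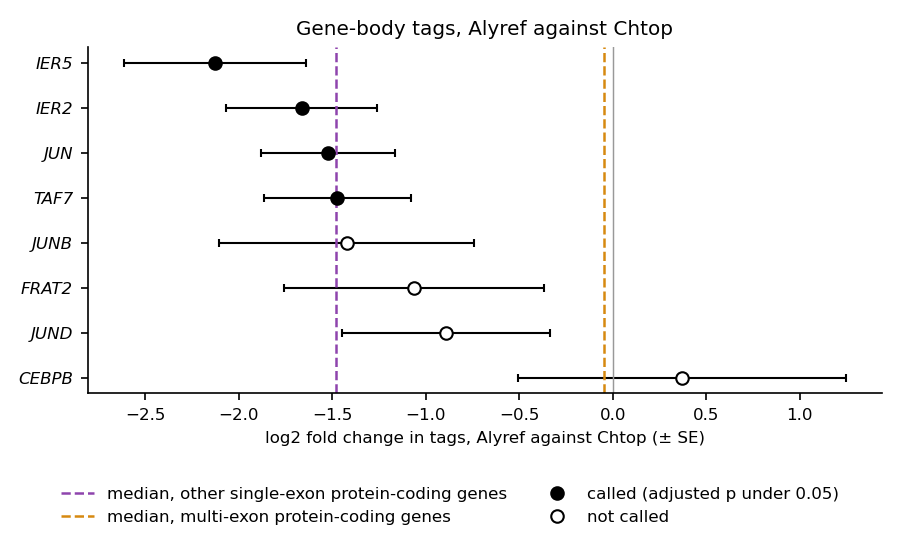
Log2 fold change in gene-body tags, Alyref against Chtop (x axis), for the 8 genes with at least 20 tags (y axis). Points are edgeR estimates with their SE, filled where called, and dashed lines are the medians of other single-exon (−1.48) and multi-exon (−0.05) protein-coding genes. The values of 7 of the 8 genes lie below 0.

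The direction was shared by the other single-exon genes that this filter kept, out of 989 annotated. They too could pass through their Chtop tags. Of 134 other single-exon protein-coding genes in the same test, histone genes apart, 49 were called lower in Alyref than in Chtop and 0 higher, with a median change of −1.48. Of 11767 multi-exon genes, 569 were called lower and 206 higher, with a median of −0.05. Over exons alone the medians were −0.95 for other single-exon and 0.11 for multi-exon genes. The median of the 8 genes lay close to that of other single-exon genes on both scales.

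Between Chtop and Control, 2 of the 8 genes were called, JUN at 2.12 (SE 0.68, adjusted p = 0.0349) and IER2 (adjusted p = 0.00646), against a background of 6.25%. With no Control tag of IER2, its pooled gene-body level in Chtop, divided by all tags, was at least 3.12-fold that of a floor of 3 Control tags. That bound holds on this scale only. Per 1e6 exonic tags IER2 had 126 in Chtop, the Control group held 12519 exonic tags in all, and no bound was computed there. Over exons IER2 was not called between Chtop and Control (6.68, SE 2.68, adjusted p = 0.153). Of the 8, 0 were called by edgeR in Alyref against Control (background 0.651%, 1 with an unadjusted p under 0.05), in Nxf1 against Control (background 0.00708%, 1), in Alyref against Nxf1 (background 1.93%, 0) or in Chtop against Nxf1 (background 10.8%, 5). Of the 9 genes, 5 had no Control tag. These calls fell to 0 of the 8 without Chtop replicate 3, Control replicate 2 or Control replicate 3, and to 1 without Alyref replicate 2 or 3, Chtop replicate 2 or Control replicate 1. DESeq2 called 0 of the 8 between Chtop and Control. Over exons alone edgeR called 0 of the 8 against Control in Alyref (background 0.949%), Chtop (2.94%) and Nxf1 (0.117%). It also called 0 in Alyref against Nxf1 (5.89%). In these comparisons 0, 1, 1 and 4 of them had an unadjusted p under 0.05. CEBPB was called lower over exons in Chtop than in Nxf1 (−2.87, SE 0.97, adjusted p = 0.0355, background 10.2%). That call rested on 5 Chtop and 6 Nxf1 tags. Over gene bodies CEBPB was not called there (−1.78, SE 0.99, adjusted p = 0.252). The Control group held 90623 tags in all, which sets how small a difference these comparisons could show.

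Per length of transcript, JUN and TAF7 had the highest Chtop levels of the 9. In pooled tags per kb of exon per 1e6 tags, JUN reached 57.7 in Chtop, 22.4 in Alyref and 30.0 in Nxf1, and TAF7 45.9, 15.2 and 17.1. IER2 had 33.6, 11.2 and 10.8 on the same scale, while FRAT1 and CEBPB had the lowest Chtop levels, 2.98 and 2.68.

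Few tags lay outside the transcripts. Upstream of the 9 transcripts, within 1000 nt on the gene strand, there were 0 tags in Alyref, 3 in Chtop and 0 in Nxf1. Downstream there were 6, 9 and 1, against 254, 520 and 83 within the exons. Opposite the transcripts there were 7, 5 and 7 tags. The annotation places HOOK2 opposite JUNB, CEBPB-AS1 opposite CEBPB, and genes without a symbol opposite IER2 and FRAT2. Of these tags CEBPB had 3, 1 and 2 and JUNB 2, 0 and 1. JUND, with no gene annotated opposite it, had 0, 2 and 3. The source of the opposite-strand tags was not tested. IER2 was tagged within its intron: 17 of its 48 gene-body tags in Alyref (35.4%, 23.4 to 49.6), 33 of 105 in Chtop (31.4%, 23.3 to 40.8) and 4 of 11 in Nxf1. Per kb, its exons held 14.7 Alyref tags against 7.11 in the intron, and 34.1 Chtop tags against 13.8.

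Along the transcript, Alyref tags lay on balance farther 3′ than Chtop tags when the 9 genes were summed, though no single gene passed the test. Transcripts were cut at the midpoint, and for each gene the ratio of tags 3′ and 5′ of it was compared between groups within libraries. Summed over the 9 genes, 54.7% of Alyref exonic tags lay 3′ of the midpoint (48.6 to 60.7), against 42.3% for Chtop (38.1 to 46.6) and 44.6% for Nxf1 (34.4 to 55.3). In the deeper libraries the shares were 56.7% and 52.3% for Alyref and 39.7% and 44.2% for Chtop, with no overlap. Chtop replicate 1, at 58.3% of 12 tags, lay above all of these. Without JUN, the gene with the most tags, the pooled shares were 56.3% for Alyref (48.5 to 63.8) and 46.8% for Chtop (41.5 to 52.2). These still include JUND, with 22 of its 24 Alyref tags and 18 of its 30 Chtop tags 3′ of the midpoint. Shares without both JUN and JUND were not computed, so how far the order rests on these genes was not tested. Gene by gene, the share was higher in Alyref than in Chtop for JUN, JUNB, JUND and TAF7. It was lower for IER2, IER5, FRAT2 and CEBPB and equal for FRAT1, so the pooled order was not shared by all genes.

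**Figure D3:**
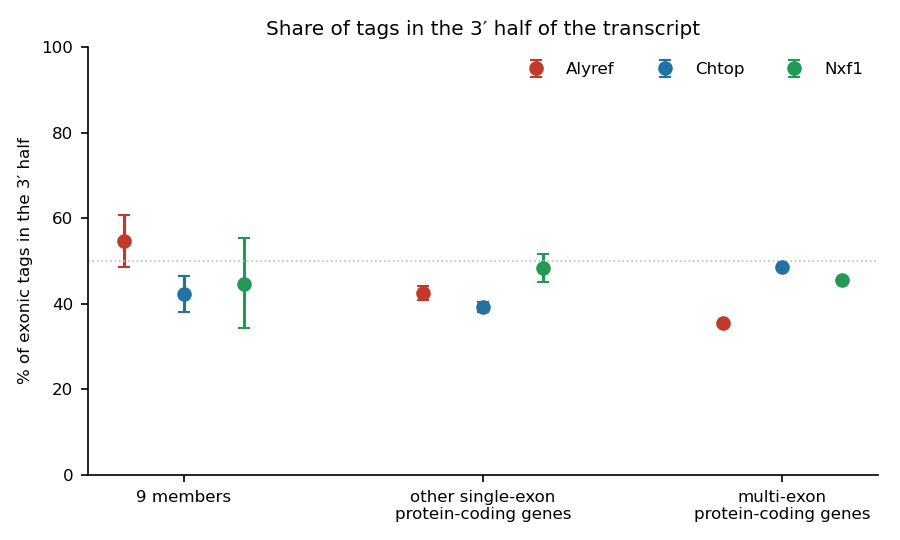
Share of exonic tags 3′ of the transcript midpoint (y axis, percent) in the 9 genes, in other single-exon and in multi-exon protein-coding genes (x axis), pooled by group, with 95% Wilson intervals (counting error only). In multi-exon genes Alyref (35.6%) lies below Chtop (48.6%), and in the 9 genes it lies above (54.7% and 42.3%).

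Multi-exon genes showed the opposite order, with 35.6% of Alyref tags and 48.6% of Chtop tags 3′ of the midpoint. In the 989 other single-exon genes the shares were 42.5% and 39.3%. In the per-gene test 5 of the 9 genes had the 50 exonic tags required, and 0 of 5 were called by edgeR between Alyref and Chtop, where 17.4% of 6208 genes were called, 31 with tags farther 3′ in Alyref and 1047 farther 5′. Of these 5, 2 had an unadjusted p under 0.05, JUN and JUND. In 4 of the 5 the value was above 0, and the median was 0.39, against −0.82 over all genes, −0.83 over multi-exon genes and 0.36 over 67 other single-exon genes.

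JUN had 2, 23 and 21 tags 5′ of its midpoint in the 3 Alyref libraries and 0, 24 and 26 tags 3′ of it. Chtop had 4, 69 and 52 tags 5′ and 2, 33 and 31 tags 3′. In the deeper libraries Alyref divided evenly and Chtop lay to the 5′ side. The log2 change in the ratio was 1.02 (SE 0.44, adjusted p = 0.0906), above that of 95.1% of genes tested, of which 6126 of 6208 were multi-exon. Of 67 other single-exon genes, 6 had a change from 1 to 1.5, 6 from 1.5 to 2 and 3 from 2 to 2.5.

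JUND had 0, 2 and 0 tags 5′ of its midpoint in Alyref and 1, 12 and 9 tags 3′, while Chtop had 0, 8 and 4 tags 5′ and 3, 11 and 4 tags 3′. All 3 Alyref libraries had most of their tags on the 3′ side. The log2 change was 2.51 (SE 1.14, adjusted p = 0.113), above that of 99.7% of genes, most of them multi-exon. Of the Alyref tags, 16 of 24 (66.7%, 46.7 to 82.0) lay between nt 1544 and nt 1736, in the 3′ UTR, on 11 different bases, against 7 of 30 Chtop tags. This stretch, like those of the other genes given here, was chosen after the profiles were seen. Most Alyref tags of the stretch sat on neighbouring bases, nt 1555 to nt 1560, in Alyref replicates 2 and 3. How far the log2 change of JUND depends on these bases was not tested. The base with most Alyref tags had 3, all in replicate 3, and so falls outside the rule for the sequences above. It was chosen after its values were seen and lies at chr19:18390868-18390888 before a run of 10 T.
JUND, 3′ UTR: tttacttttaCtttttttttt

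**Figure D4:**
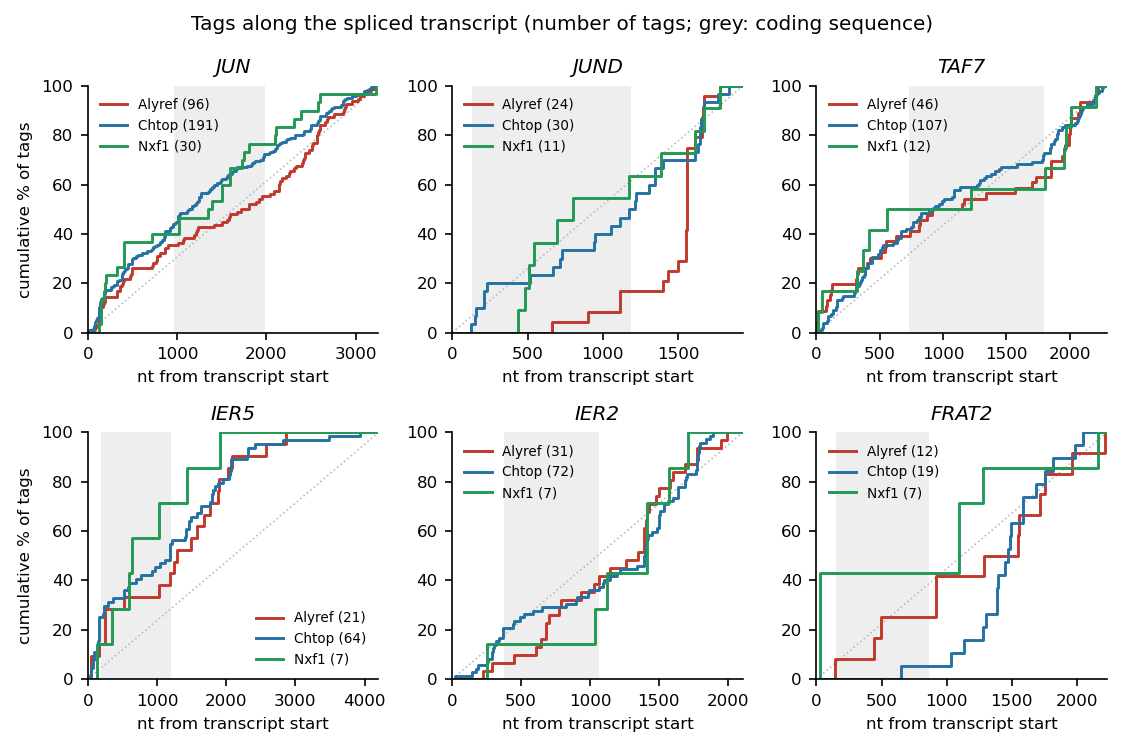
Cumulative share of exonic tags (y axis, percent) from transcript start (x axis, nt) in 6 of the 9 genes for Alyref, Chtop and Nxf1, with tag numbers. Grey marks the coding sequence and the dotted line an even spread. Of 24 Alyref tags of JUND, 16 fall between nt 1544 and 1736, and past nt 2521 of IER5 lie 2 Alyref, 3 Chtop and 0 Nxf1 tags.

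IER5 tags lay towards the 5′ end with all 3 proteins. Of its tags, 19 of 21 in Alyref, 57 of 64 in Chtop and 7 of 7 in Nxf1 lay 5′ of the midpoint of a 4201 nt transcript. From nt 2521 to the end there were 2, 3 and 0 tags. The change between Alyref and Chtop was 0.06 (SE 0.47, adjusted p = 0.948). The GC content of IER5 falls from 61.8% 5′ of the midpoint to 37.8% 3′ of it, and the annotated 3′ UTR is 3014 nt long. Their part in the profile was not tested.

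TAF7 tags were sparsest in the middle of the transcript. Of its Alyref tags 23 of 46 lay in nt 1 to 918, 6 in nt 919 to 1836 and 17 in the last stretch to nt 2295, and Chtop had 54, 24 and 29 of 107. The change in the ratio was 0.39 (SE 0.66, adjusted p = 0.734). IER2 gave −0.19 (SE 0.87, adjusted p = 0.908), with 61.3% of Alyref and 63.9% of Chtop exonic tags 3′ of the midpoint. FRAT2 and CEBPB had too few tags for the test: 17 of 19 Chtop tags of FRAT2 lay 3′ of the midpoint against 7 of 12 Alyref tags, and CEBPB had 7 of 10 in Alyref, 5 of 5 in Chtop and 6 of 6 in Nxf1.

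**Figure D5:**
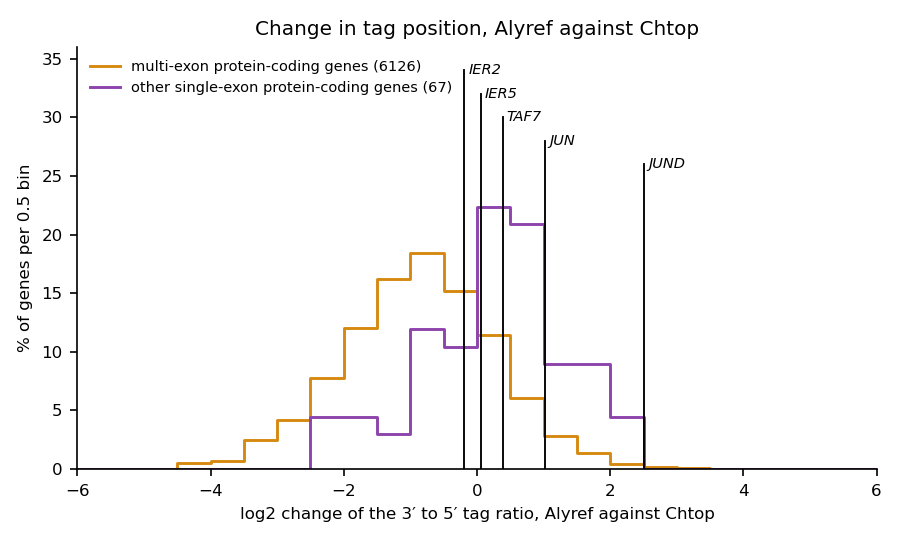
Log2 change of the ratio of tags 3′ and 5′ of the transcript midpoint, Alyref against Chtop (x axis), as the percent of genes per bin (y axis) for multi-exon and other single-exon protein-coding genes. Vertical lines mark the 5 tested genes, which lie between −0.19 and 2.51, to the right of the multi-exon median of −0.83.

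In the other position comparisons 0 of the 5 genes were called by edgeR. The backgrounds were 0.113% for Alyref and Nxf1, where JUND had an unadjusted p under 0.05, and 0.145% for Chtop and Nxf1, with none. They were 0.0322% for Alyref and Control, 0.0322% for Chtop and Control and 0% for Nxf1 and Control, with none of the 5 under 0.05 unadjusted. The 5 genes had at most 5 Control tags each, so no values are given against Control.

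Other genes of the same pathways were tested in the same fits. Of 30 other immediate-early, AP-1 and C/EBP genes, 21 had at least 20 tags, and 2 of them were called lower in Alyref than in Chtop and 0 higher, with a median change of −0.69. That is a share near the 7.13% of all genes called. Of 15 TFIID genes, 14 were tested and 0 called (median −0.16), and of 15 Wnt and GSK3 genes, 15 were tested and 0 called (median −0.33). CEBPG, a C/EBP factor, was called lower in Alyref (−1.20, SE 0.37, adjusted p = 0.0312 with the first filter, which called 13.5% of genes), while ATF2, an AP-1 partner of JUN, was not (−0.61, SE 0.31, adjusted p = 0.187). TAF1 (0.13, SE 0.29, adjusted p = 0.78) and TAF2 (−0.13, SE 0.35, adjusted p = 0.82), both TFIID subunits, and TCF7L2 (0.34, SE 0.32, adjusted p = 0.483) and CSNK1A1 (−0.69, SE 0.34, adjusted p = 0.171), a Wnt effector and a Wnt kinase, were not called. In position, ATF2 (−2.60, SE 0.59, adjusted p = 0.000392) and TCF7L2 (−2.18, SE 0.54, adjusted p = 0.0014) were called farther 5′ in Alyref than in Chtop, as were most of the 17.4% of genes called there. Of the immediate-early, AP-1 and C/EBP list, 10 genes were tested in position, 1 called farther 3′ and 1 farther 5′ (median 0.02). Of 9 TFIID genes 0 and 1 were called (median −0.86), and of 15 Wnt and GSK3 genes 0 and 4 (median −0.99).

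The genes whose log2 CPM over the 12 libraries was most like the summed tags of the 9 were PPP1R15B (Pearson r = 0.895), SLC25A29 (r = 0.891) and TTI1 (r = 0.884), of 1809 genes compared. The points share library depth, and these values are a description. These 3 genes were picked for likeness to sums that are higher in Chtop than in Alyref, which favours the same order in them. All 3 had more tags in Chtop than in Alyref in replicates 2 and 3: PPP1R15B had 76 and 65 in Alyref and 182 and 209 in Chtop. They have 2, 4 and 8 exons.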

How the data were processed

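The authors removed phiX reads with Bowtie 1.1.2, extracted molecular barcodes with UMI-tools 0.5.3, trimmed with Reaper, mapped uniquely to hg19 with STAR 2.4.2a, merged lane runs by library and removed duplicates. The deposited counts are tags per crosslinked base, used as deposited for the 12 libraries. Genes came from GENCODE 44 lifted to GRCh37, without the mitochondrial chromosome.

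Tags on the gene strand were summed over gene bodies and canonical exons. Levels were tested with edgeR 4.0.16 (R 4.3.3, TMM, filterByExpr, quasi-likelihood, 12 libraries, group only), and positions with library and side-by-group terms for genes with at least 50 exonic tags. P-values were Benjamini-Hochberg adjusted over all genes tested and called under 0.05. Both tests were checked on simulated data with changes larger than those of JUN. The filter of at least 20 tags was not part of that check. DESeq2 1.42.0, other filters, counting over exons and leaving out libraries were alternatives. The genes, lists and tests were chosen with earlier results of these data known. Named genes were the 9, the 3 most like them in log2 CPM, and the 2 most abundant of each list. Tables pooling replicates were not used.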

Additional observations from a re-analysis of the deposited data

How the results depend on the processing

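Without a filter on low counts, 1 of the 9 genes was called between Chtop and Control and 4 between Alyref and Chtop, against 0 and 1 with the planned filter. Over all genes this was 528 and 522 of 34410, against 521 and 523 of 3884. With at least 20 tags the counts were 2 and 4 (883 and 1007 of 14122 genes), and without replicate 1 of every group 2 and 4 (1059 and 1454 of 9665 genes), with 1 called between Chtop and Nxf1 (1979 genes). DESeq2 called 0 between Alyref and Chtop (74 of 3884 genes) and gave JUN −0.016 for Alyref against Control. Leaving out 1 library at a time gave 0 to 2 for Chtop and Control and 0 to 4 for Alyref and Chtop, where the calls over all genes ran from 8 to 850. In the test with at least 20 tags, Chtop and Control gave 1 with RLE size factors (662 of 14122 genes), 0 with DESeq2 (246), 0 over exons (301 of 10222) and 0 to 3 without 1 library. Alyref and Chtop gave 0 with DESeq2 (46 genes) and 0 to 4 without 1 library (40 to 1207 genes).

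Over exons JUN was called between Alyref and Nxf1 (1 of 9, and 260 of 884 genes), and reversed to −0.82 for Alyref against Control and −0.71 for Chtop against Nxf1. Other reversals were of values not called: JUN for Alyref against Nxf1 without 1 library (−1.20 to 0.035) and CEBPB for Alyref against Chtop with at least 20 tags (−0.71 to 1.00). Positions reversed with the outer stretches of the transcript in place of both sides of the midpoint for IER2, Alyref against Chtop (0.13), and TAF7, Alyref against Nxf1 (0.35). Without 1 library, Alyref against Chtop ran from −0.58 to 2.92 for IER5 and −0.81 to 0.25 for IER2. Alyref against Nxf1 ran from −0.37 to 0.31 for TAF7 and −5.26 to 0.049 for IER2. Chtop against Nxf1 ran from −0.33 to 0.30 for JUN, −5.07 to 0.24 for IER2 and −0.41 to 2.54 for JUND. Position calls numbered 0 in every alternative run. The causes of these changes were not tested.

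By the sample titles, libraries of the same number shared sequencing lanes in every group, with replicate 2 on other HiSeq lanes than replicates 1 and 3. No label ties a number to a shared culture. Of 18 same-number correlations of deviations, 6 were over 0.1 (from −0.16 to 0.32), which is short of the pairing required here, while 10 of 12 libraries were closest to their own number. With a replicate block, 1 gene was called between Alyref and Chtop (JUN, −1.50, adjusted p = 0.0027), 4 with at least 20 tags, and the block changed no other call. Depth limits all comparisons with Control, whose 3 libraries held 9 tags of the 9 genes.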
